A study of Mus musculus with 1087 samples.

Results

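The Tie receptors and their ligands were followed through single Kit-high cells of the mouse embryo, as 5 of the 46078 genes in a read count table of 1087 cells. Members were taken by gene symbol: the receptors Tek (ENSMUSG00000006386) and Tie1 (ENSMUSG00000033191), the phosphatase Ptprb (ENSMUSG00000020154), and the ligands Angpt1 (ENSMUSG00000022309) and Angpt2 (ENSMUSG00000031465). All 5 were in the table. No measured value entered their choice. After each cell was thinned at random to 100000 reads, a depth every cell reached, Tie1 had a read in 89.4% of cells, Tek in 82.2%, Ptprb in 62.2%, Angpt1 in 56.9% and Angpt2 in 20.9%.

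Tek encodes Tie2, a receptor tyrosine kinase of endothelial cells and of hematopoietic stem cells. Angiopoietin-1, the product of Angpt1, clusters and activates Tie2, and angiopoietin-2 binds the same receptor but acts as a weak activator or an antagonist depending on the setting. Tie1 is a related receptor that pairs with Tie2 and tunes its signal, while the phosphatase VE-PTP, encoded by Ptprb, removes phosphate from Tie2 and from partners of VE-cadherin. Mice without Tek or Angpt1 die as embryos with poorly formed vessels and heart. In adult bone marrow, angiopoietin-1 has been reported to hold Tie2-bearing stem cells at rest.

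The cells came from the aorta-gonad-mesonephros region, with parts of the vitelline and umbilical arteries, where hematopoietic stem cells first form on the wall of the aorta. Every embryo, whatever its group, was Gata2V/+: it carried 1 Gata2 allele linked to the fluorescent protein Venus, from wild-type C57BL/6HsdJOla mothers and Gata2V/V fathers. Cells were released with collagenase, stained for CD31, cKit and CD27 and sorted, and sample names mark all of them as Kit-high. Of the whole set, 8.00% were E10 cells of intermediate Venus, called G2VInt (87 cells), 12.0% were E11 G2VInt cells (130 cells) and 25.7% were E11.5 G2VInt cells. E11.5 cells sorted as CD27+ made up 10.9%, and E11.5 cells of low Venus, called G2VLo, made up 43.4%. For the CD27+ cells the sources used here give no Venus level. Embryo, litter and sort are not labelled, so each group counts as 1 sample, its cells are not replicates, and differences carry no test. Intervals below cover counting error only, and copies made by PCR, which were counted as reads, make them too narrow.

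The promoters of Tek and Tie1 are shown as those of the receptor pair, whose levels moved together over the cell sets; those of the other members are not shown. Both sequences are RefSeq's (build GRCm38.p6), run 5′ to 3′ on the gene's own strand, and cover 250 bases before to 50 after the start site. Capitals mark the letters searched on both strands. These were AGGAAG for the ETS family of factors and its variant spelling CGGAAG, then AGATAA for the GATA family, and last TGTGGT for the RUNX family.
Tek promoter, plus strand of chr4:94739039-94739338: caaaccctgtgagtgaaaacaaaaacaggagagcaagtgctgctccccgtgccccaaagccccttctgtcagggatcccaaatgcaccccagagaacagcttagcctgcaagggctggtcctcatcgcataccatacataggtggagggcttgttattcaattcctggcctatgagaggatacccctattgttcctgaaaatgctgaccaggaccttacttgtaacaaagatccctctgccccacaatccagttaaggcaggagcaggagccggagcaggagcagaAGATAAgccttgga
Tie1 promoter, minus strand of chr4:118489800-118490099: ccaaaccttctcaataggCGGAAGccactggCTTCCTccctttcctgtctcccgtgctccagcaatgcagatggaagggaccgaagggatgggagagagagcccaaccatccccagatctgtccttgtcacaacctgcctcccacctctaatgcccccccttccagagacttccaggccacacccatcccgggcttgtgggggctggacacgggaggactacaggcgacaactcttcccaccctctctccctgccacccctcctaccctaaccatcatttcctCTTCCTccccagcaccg
AGATAA stood once in the Tek window, 36 bases downstream of the start. The Tie1 window held CGGAAG from base 19 of the printed run, and AGGAAG, on the other strand, from base 32 and again 33 bases downstream of the start. TGTGGT was in neither. Of 32851 promoters of the same length, 35.4% held AGGAAG, 16.8% CGGAAG, 11.2% AGATAA and 16.8% TGTGGT, and a match is a description of the letters, not of a bound site. RefSeq's Tie1 start lies inside the gene as annotated by GENCODE.

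On the same build, Tek spans chromosome 4 from 94739289 to 94874976 on the plus strand, and Tie1 spans chromosome 4 from 118471191 to 118490061 on the minus strand. Ptprb lies on chromosome 10 from 116275523 to 116389535 (plus) and Angpt1 on chromosome 15 from 42424723 to 42676977 (minus), where the antisense gene Gm17473 overlaps it. Angpt2, on chromosome 8 from 18690263 to 18741562 (minus), lies within Mcph1, which runs on the other strand. The library kit does not mark strand, so reads of Angpt2 and Mcph1, or of Angpt1 and Gm17473, that fall on shared exons cannot be told apart. Mcph1 was at 61.4 to 111.7 CPM in HC1 cluster 8, 47.3 to 87.1 in HC1 cluster 7, 29.2 to 40.4 in EC cluster 1 and 35.3 to 40.7 in EC cluster 2, so that HC1 sets lay above EC sets, whereas Angpt2, below, was higher in EC. Within EC at E11.5 in G2VInt cells both genes were higher in cluster 2.

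Levels are in CPM, the reads of a gene scaled to a common total of reads on all genes, after summing over the cells of 1 group and 1 cluster, for sets of at least 10 cells. Clusters and classes (EC, HC1, HC2, U1 and U2) are those the labels give for all cells but the CD27+ ones. G2VInt cells were the deepest, with medians of 2121423 reads on E10, 2212898 on E11 and 1892779 on E11.5, against 621544 in CD27+ cells and 539090 in G2VLo cells. The class names were checked against marker lists. The summed level of 10 endothelial markers was 1601 CPM in HC1 cluster 8, 3247 in HC1 cluster 7, 11151 in cluster 1 of EC and 9075 in cluster 2 of EC. That of 6 hematopoietic markers was 2142, 1790, 34.4 and 16.4 CPM in the same order, so HC1 cells carried both kinds of marker. U1 cluster 5 held the macrophage list at 12713 CPM. Its endothelial list, at 133.5 CPM, was the lowest of the clusters checked, and it is set beside the others below as a low reference. It was not free of vessel genes, with Pecam1 at 74.2 CPM. Its venous list summed to 63.8 CPM, against 13.7, 17.8 and 6.51 CPM in HC2 clusters 9, 10 and 11.

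Tek was present in every EC and HC1 set and highest in EC cluster 1. In HC1 cluster 8 it stood at 98.3, 179.3 and 138.4 CPM in G2VInt cells at E10, E11 and E11.5 and at 135.5 CPM in G2VLo cells. In HC1 cluster 7 the level was 192.2, 419.9 and 308.6 CPM on those days and 225.3 CPM in G2VLo cells. EC cluster 1 held 584.8 CPM at E10 and 575.2 CPM at E11.5 in G2VInt cells and 416.8 CPM in G2VLo cells. In EC cluster 2 the values were 357.2 CPM in G2VInt and 295.9 CPM in G2VLo cells at E11.5. By mean over groups, Tek ran from EC cluster 1 through EC cluster 2, HC1 clusters 7 and 8 and HC2 clusters 9 to 11. Among EC and HC1 clusters, only EC cluster 2 and HC1 cluster 7 overlapped as neighbours. For every gene, HC2 clusters 9 and 11 and U1 cluster 5 were 1 set each, with no range. Clusters 9 and 5 were G2VLo sets and cluster 11 an E11.5 G2VInt set. Cluster 10 had G2VInt sets at E11 and E11.5, so ranks among these clusters cross gate and depth. In HC2 the level was 46.4 CPM in cluster 9, 14.72 to 22.97 in cluster 10 and 12.9 in cluster 11, against 4.17 CPM in U1 cluster 5. Single cells spread widely within a set: the middle 50% of E11 cluster 7 cells lay between 191.3 and 569.3 CPM.

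Tie1 followed nearly the same order at higher levels. HC1 cluster 8 had 347.4, 484.2 and 429.1 CPM in G2VInt cells at E10, E11 and E11.5, and 339.6 CPM in G2VLo cells. HC1 cluster 7 had 692, 755 and 659 CPM on those days and 568 CPM in G2VLo cells. EC cluster 1 reached 1030.4 CPM at E10 and 1313 CPM at E11.5 in G2VInt cells, with 750.2 CPM in G2VLo cells, and EC cluster 2 had 912 CPM in G2VInt and 714 CPM in G2VLo cells. The ranges of EC cluster 1, EC cluster 2 and HC1 cluster 7 overlapped from neighbour to neighbour, and HC1 cluster 8 lay below them without overlap. HC2 cluster 9 held 116.9 CPM, cluster 10 held 47.2 to 57.3 CPM and cluster 11 held 3.10 CPM, below the 16.5 CPM of U1 cluster 5. Per kilobase of exon, the mean level of Tie1 exceeded that of Tek in both EC and both HC1 clusters: 81.4 against 29.3 CPM per kb in HC1 cluster 8, and 209.7 against 111.6 in EC cluster 1.

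Ptprb, the phosphatase that acts on Tie2, fell off most steeply along the same order. HC1 cluster 8 had 9.79, 28.5 and 26.7 CPM in G2VInt cells at E10, E11 and E11.5 and 27.3 CPM in G2VLo cells. HC1 cluster 7 had 39.2, 130.2 and 92.7 CPM on those days and 81.5 CPM in G2VLo cells. In EC cluster 1 it stood at 259.3 CPM at E10 and 270.1 CPM at E11.5 in G2VInt cells and at 201.5 CPM in G2VLo cells, and in EC cluster 2 at 114.6 CPM in G2VInt and 108.9 CPM in G2VLo cells. Of neighbours in this order, EC cluster 2 and HC1 cluster 7 overlapped. HC2 was close to empty of it, with 0.233 CPM in cluster 9 and 0.992 to 1.03 CPM in cluster 10, no more than the 1.66 CPM of U1 cluster 5. The cluster 9 level comes from 1 set, of G2VLo cells; over all groups its share of cells with a Ptprb read was above that of U1 cluster 5, with overlapping intervals (13.95%, 5.30% to 27.9%, against 7.14%, 2.36% to 15.9%, at equal depth).

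Angpt1, the activating ligand, was higher in HC1 than in EC, unlike Tek, Tie1 and Ptprb. It was at 212.8, 233.1 and 204.8 CPM in HC1 cluster 8 of G2VInt cells at E10, E11 and E11.5, and at 200.4 CPM in G2VLo cells. HC1 cluster 7 had 220.7, 151.7 and 144.8 CPM on those days and 171.5 CPM in G2VLo cells, a range that overlaps that of cluster 8. EC cluster 1 had 1.09 CPM at E10 and 5.35 CPM at E11.5 in G2VInt cells and 7.01 CPM in G2VLo cells, and the 3 highest cells held 68.2% to 71.3% of those reads. In EC cluster 2 only 96 reads in 54 G2VInt cells and 80 reads in the G2VLo cells were counted, which is 0.766 CPM (95% Poisson interval 0.621 to 0.936) and 0.969 CPM (0.768 to 1.21). HC2 cluster 9 held 123.6 CPM and cluster 10 held 64.9 to 119.6 CPM, while cluster 11 had 4.45 CPM and U1 cluster 5 had 0.314 CPM. Per kilobase, the mean level of Angpt1 in HC1 cluster 8 was 40.9 CPM per kb, above the 29.3 of Tek in the same cells.

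Angiopoietin-1 is well known from cells around vessels, so markers of such cells were read beside it. Of 8 mural and mesenchymal markers, 1 reached 10 CPM in HC1 cluster 7: Acta2, smooth muscle actin, at 349.1 CPM of a summed 372.7. In HC1 cluster 8, 2 of the 8 did, with Acta2 at 51.7 CPM of a summed 78.98. The list summed to 18.2 CPM in EC cluster 1 and 5.86 CPM in EC cluster 2. At E11.5 the other 7 markers were each between 0 and 8.59 CPM in cluster 7, the highest being periostin (Postn), with Cspg4 at 0. In cluster 8 Postn was at 22.4 CPM in G2VInt and 20.7 CPM in G2VLo cells, and the remaining 6 were at 3.97 CPM or less. Their part in the Angpt1 level was not tested.

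Angpt2, the context-dependent ligand, was the lowest of the 5 genes in HC1 and was highest, among EC and HC1 sets, in EC cluster 2, where it lay above Angpt1. Its level was 2.77, 4.89 and 3.06 CPM in HC1 cluster 8 of G2VInt cells at E10, E11 and E11.5, with 4.60 CPM in G2VLo cells, and 1.73, 5.90 and 4.44 CPM in HC1 cluster 7, with 2.29 CPM in G2VLo cells. EC cluster 1 had 15.4 CPM at E10 and 11.0 CPM at E11.5 in G2VInt cells and 12.1 CPM in G2VLo cells. EC cluster 2 had 21.5 CPM in G2VInt and 18.6 CPM in G2VLo cells. EC cluster 2 lay above EC cluster 1, and both lay above all HC1 sets without overlap; HC1 could not be set apart from the 3.00 CPM of U1 cluster 5. A few cells carried much of the signal: the 3 highest cells of EC cluster 2 held 57.2% of its Angpt2 reads in G2VInt cells and 18.7% in G2VLo cells, with the highest cell at 154.1 CPM and 101.9 CPM.

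**Figure D1:**
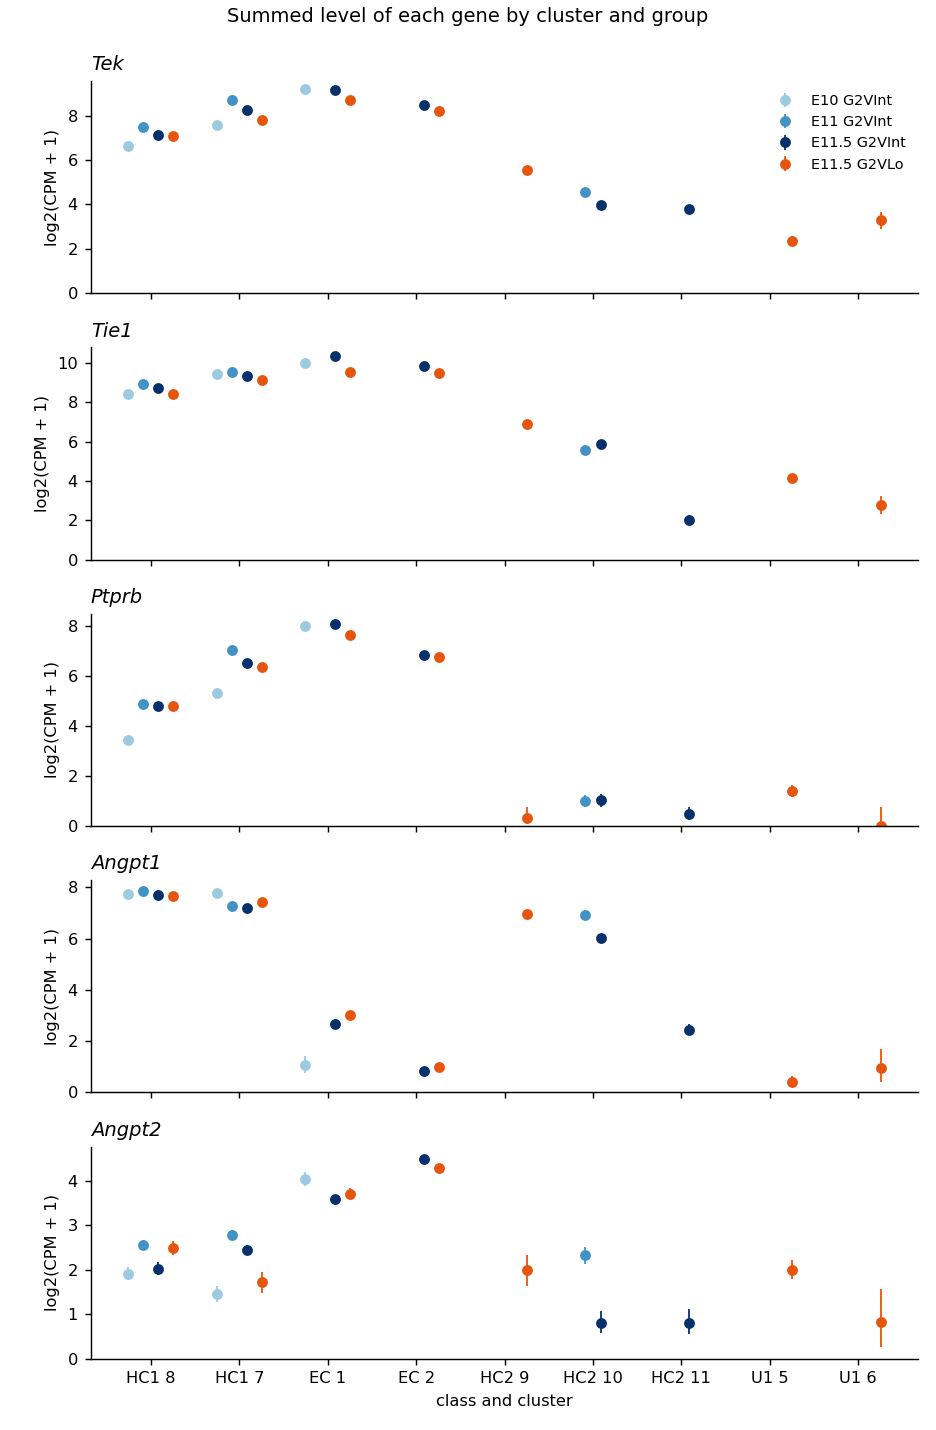
Summed level of each gene, as log2(CPM + 1), in HC1 clusters 8 and 7, EC clusters 1 and 2, HC2 clusters 9 to 11 and U1 clusters 5 and 6; a point is 1 group with its 95% Poisson interval, for sets of at least 10 cells. Tek, Tie1 and Ptprb are highest in EC cluster 1, Angpt1 is highest in HC1 and near 0 in EC cluster 2 (0.766 and 0.969 CPM), and Angpt2 peaks in EC cluster 2 (21.5 and 18.6 CPM).

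Shares of cells with a read were also taken at equal depth. Tek and Ptprb were read in nearly all EC cells, so their shares cannot show the gap in level between EC clusters 1 and 2. For Angpt1 the share was 97.98% of cells in HC1 cluster 8 (Clopper-Pearson 95% interval 94.9% to 99.4%) and 92.3% in HC1 cluster 7 (87.8% to 95.5%), against 13.8% in EC cluster 1 (8.63% to 20.5%) and 6.84% in EC cluster 2 (3.69% to 11.4%). U1 cluster 5, the low reference, gave 5.71% (1.58% to 13.99%), and the interval of EC cluster 2 overlaps that one. Without thinning those shares were 100%, 97.1%, 53.1%, 31.6% and 14.3%, at median depths of 861780, 1401736, 1391509, 786981 and 498507 reads per cell. Ptprb was read in 47.5% of HC1 cluster 8 cells and 78.7% of cluster 7 cells, against 97.2% and 97.4% in EC clusters 1 and 2 and 7.14% in U1 cluster 5; unthinned these were 67.7%, 91.8%, 98.6%, 100% and 17.1%. Tek was read in 87.4% of cluster 8 and 95.7% of cluster 7 cells and in over 99% of EC cells, with 20% in U1 cluster 5; without thinning the HC1 clusters gave 94.4% and 98.6% and U1 cluster 5 gave 47.1%. Angpt2 was read in 17.2% of cluster 8 and 13.04% of cluster 7 cells, against 27.6% in EC cluster 1, 38.4% in EC cluster 2 and 8.57% in U1 cluster 5; unthinned these were 37.4%, 34.8%, 56.6%, 60.5% and 15.7%. In HC2 cluster 9, Angpt1 was read in 93.02% of 43 cells, Tie1 in 86.05%, Tek in 60.5% and Ptprb in 13.95%.

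**Figure D2:**
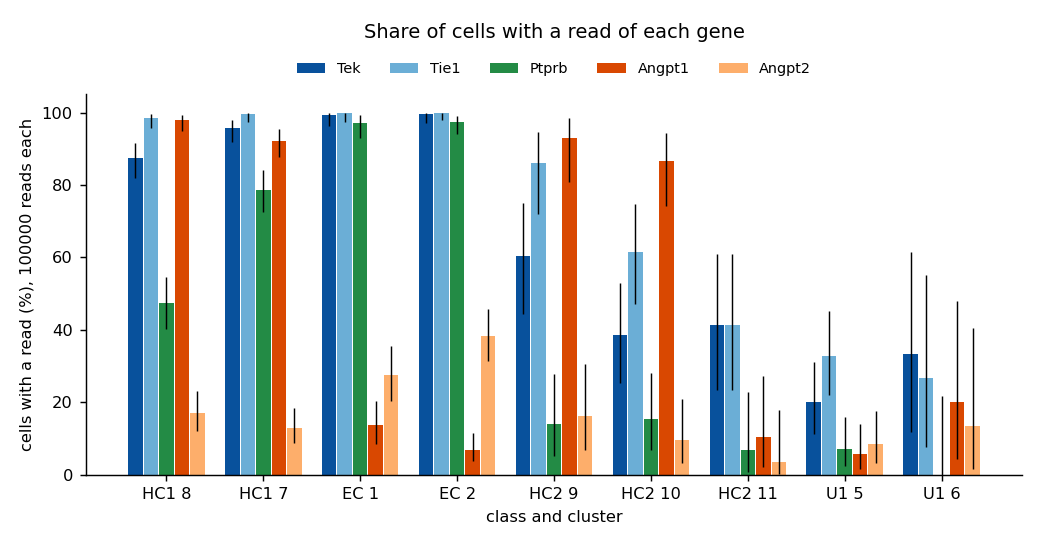
Percent of cells with at least 1 read after thinning each cell to 100000 reads, by gene and cluster, all groups pooled; bars start at 0 and lines are Clopper-Pearson 95% intervals. Tie1 and Tek are read in most EC and HC1 cells, Ptprb in 47.5% of HC1 cluster 8 and 97.4% of EC cluster 2, and Angpt1 in 97.98% and 6.84% of the same clusters.

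Receptor and activating ligand were read in the same HC1 cells. Taken singly, Tek was read in 87.4% and Angpt1 in 97.98% of cluster 8 cells, and in 95.7% and 92.3% of cluster 7 cells. Shares that high make a large overlap by themselves. Tek and Angpt1 both had a read in 85.9% of cells of HC1 cluster 8 (80.2% to 90.4%) and in 88.4% of cells of HC1 cluster 7 (83.2% to 92.4%). Of the rest of cluster 8, 24 cells had Angpt1 alone and 3 had Tek alone, whereas in cluster 7 Tek alone was found in 15 cells and Angpt1 alone in 8. In EC the pair was read together in 13.1% of cells of cluster 1 (19 cells) and 6.84% of cells of cluster 2 (13 of 190 cells), and 86.2% and 92.6% had Tek alone. HC2 cluster 9 had both in 25 of 43 cells and Angpt1 alone in 15, and cluster 10 had both in 18 of 52 and Angpt1 alone in 27. In U1 cluster 5 none of 70 cells had both, with an upper 95% limit of 5.13%. Without thinning both were read in 94.4% of cluster 8, 95.7% of cluster 7, 53.1% of EC cluster 1, 31.6% of EC cluster 2, 83.7% of HC2 cluster 9, 94.2% of HC2 cluster 10 and 7.14% of U1 cluster 5. Within HC1, Pearson's r between the log2(CPM + 1) of the 2 genes in single cells was taken in sets of 27 cells or more. It lay between -0.32 and -0.00 over the 4 groups of cluster 7 (Spearman's rho -0.46 to -0.03). Over those of cluster 8 it lay between -0.05 and 0.33 (rho 0.03 to 0.13). These values used all reads, so depth differed between cells of a set, and both genes share each cell's library.

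**Figure D3:**
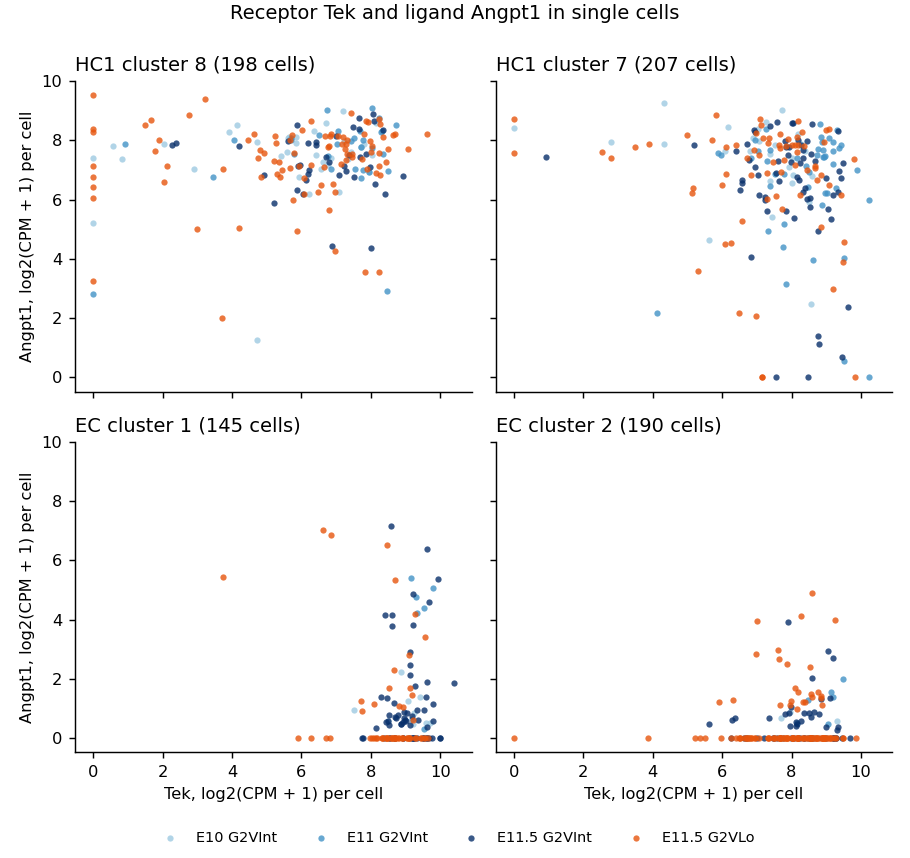
Angpt1 (vertical) against Tek (horizontal) in single cells, both as log2(CPM + 1), in HC1 clusters 8 and 7 and in EC clusters 1 and 2; a point is 1 cell and colours are groups. HC1 cells are high on both axes, and EC cells lie along the bottom with Tek and little Angpt1.

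At E11.5, HC1 cluster 7 was set against EC cluster 2 to compare hematopoietic cells that still carry endothelial markers with endothelial cells. Called means at least 2-fold, with 10 CPM or more on 1 side. Clusters were made from the expression of these same cells, so a difference between them is a description. Of 5 genes, 1 was higher in both gates, Angpt1, where 13.3% of all genes tested were higher in G2VInt and 14.3% in G2VLo cells. Its log2 ratio was 7.56 (7.27 to 7.87), or 188.9-fold, in G2VInt cells and 7.47 (7.15 to 7.80), or 177.03-fold, in G2VLo cells. Angpt2 was the 1 gene lower, at log2 ratios of -2.28 (-2.43 to -2.14) and -3.02 (-3.38 to -2.68), beside 11.1% and 11.4% of all genes. In G2VLo cells the Angpt2 value rests on 72 reads in cluster 7, of which 3 cells gave 73.6%, and it ran from -5.11 with the upper library numbers to -1.54 with thinned cells. The receptors and the phosphatase stayed within 2-fold: Tek -0.21 and -0.39, Tie1 -0.47 and -0.33, Ptprb -0.31 and -0.42 in G2VInt and G2VLo cells. The median of all genes stood at 0.16 and 0.20 in these comparisons, so relative to it Angpt1 was at 7.40 and 7.27 and Angpt2 at -2.44 and -3.22. Beside these, 6 of 6 hematopoietic markers were higher, 5 of 5 venous markers lower, and 5 of 10 endothelial markers lower in G2VInt and 6 of 10 in G2VLo cells.

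Between the HC1 clusters, cluster 8 had less Ptprb than cluster 7 in all 4 groups and less Tek by 2-fold or more in 2 of them. Ptprb gave log2 ratios of -2.00 (-2.12 to -1.88) at E10, -2.19 (-2.25 to -2.13) at E11, and at E11.5 -1.80 (-1.87 to -1.72) in G2VInt and -1.58 (-1.68 to -1.48) in G2VLo cells. Tek was at -0.97, -1.23, -1.16 and -0.73 in the same order, of which the E11 value and the E11.5 G2VInt value pass 2-fold. The E11.5 G2VInt value, -1.16, became -0.83 when the authors' clustering of all cells was used. Thus 1, 2, 2 and 1 of 4 genes were called lower, where 5.57%, 6.40%, 5.79% and 4.10% of all genes were. Tie1 was lower by less than 2-fold (-0.99, -0.64, -0.62 and -0.74), and Angpt1 stood at -0.05, 0.62, 0.50 and 0.22. Angpt2 was under 10 CPM on both sides. Endothelial markers were also lower in cluster 8 (4 or 5 of 9 or 10 in each group), as were arterial ones (5 or 6 of 6); their part in the receptor values was not tested.

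Within the endothelium at E11.5, EC cluster 1 held more Ptprb than EC cluster 2 by over 2-fold in G2VInt cells. No other member with 10 CPM or more on 1 side passed that limit. Angpt1 was under 10 CPM on both sides and not called, with log2 ratios of 2.80 in G2VInt cells (5.35 against 0.766 CPM) and 2.85 in G2VLo cells (7.01 against 0.969 CPM). The log2 ratio of Ptprb was 1.24 (1.21 to 1.26) in G2VInt cells, which made it 1 of 4 genes higher where 4.12% of all genes were. In G2VLo cells it was 0.89 (0.84 to 0.93), and 0 of 4 genes passed 2-fold in either direction, beside 5.51% of all genes. Tek stood at 0.69 and 0.49, Tie1 at 0.53 and 0.07, and Angpt2 at -0.97 and -0.62 in G2VInt and G2VLo cells.

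The G2VInt cells allow a comparison of days within a cluster. In HC1 cluster 7, Tek and Ptprb were higher at E11 than at E10, by log2 ratios of 1.13 (1.10 to 1.16) and 1.73 (1.67 to 1.80), so that 2 of 4 genes were higher where 8.18% of all genes were. Tie1 stood at 0.13 and Angpt1 at -0.54 in that step. In HC1 cluster 8, Ptprb was higher at E11 by 1.54 (1.42 to 1.66), as 1 of 4 genes beside 6.07% of all genes, with Tek at 0.87, Tie1 at 0.48 and Angpt1 at 0.13. With the clustering of all cells, Tek in cluster 7 came to 0.98 and Ptprb in cluster 8 to 0.92, under 2-fold, and Ptprb in cluster 7 to 1.09. From E11 to E11.5 no gene moved 2-fold (0 of 4 in each cluster, beside 3.89% of all genes in cluster 7 and 6.36% in cluster 8). Tek then stood at -0.44 and -0.37 and Ptprb at -0.49 and -0.10 in clusters 7 and 8. In the lower library numbers alone those Ptprb ratios were -1.12 and -1.08, and in the upper ones 0.10 and 0.64. EC cluster 1 at E11.5 over E10 had 0 of 4 genes past 2-fold, beside 10.8% of all genes, with Tek at -0.02, Tie1 at 0.35, Ptprb at 0.06 and Angpt2 at -0.49; its E10 side is 10 cells. Arterial markers moved with the E11 step: in cluster 7, 4 of 6 were higher (664.6 against 227.6 CPM summed), and in cluster 8, 5 of 6 (108.2 against 27.39 CPM). Of 10 endothelial markers, 1 was higher in cluster 7, near the 8.18% of all genes there. In cluster 8, 4 of the 10 endothelial markers were higher, beside 6.07% of all genes. Their part in the change of Tek and Ptprb was not tested, and day, embryo pool and library block cannot be told apart.

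**Figure D4:**
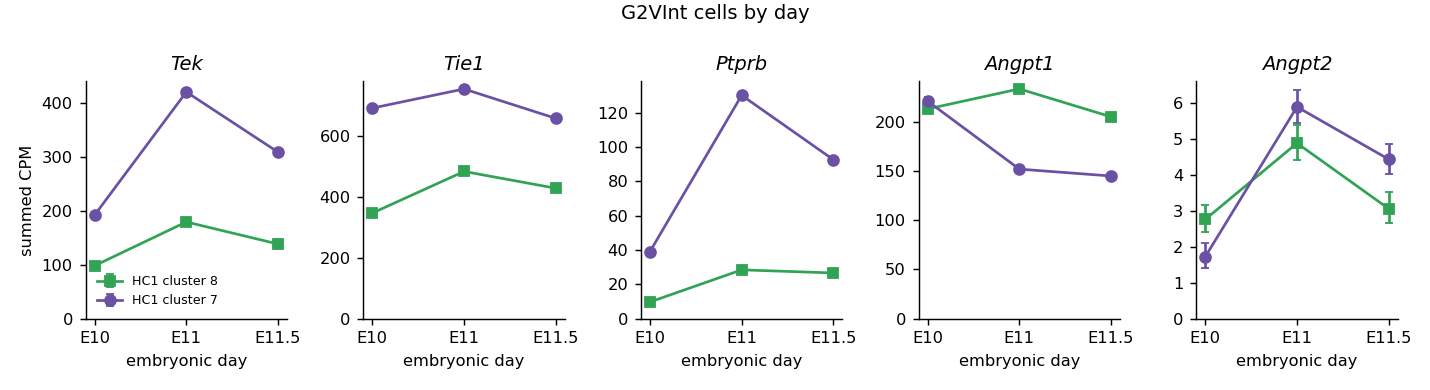
Summed CPM of each gene in G2VInt cells at E10, E11 and E11.5, in HC1 cluster 8 (green squares) and HC1 cluster 7 (purple circles), with 95% Poisson intervals. Of the 3 days, E11 has the highest summed Tek and Ptprb in both clusters (419.9 CPM Tek and 130.2 CPM Ptprb in cluster 7), though E11.5 stays within 2-fold of E11, while Angpt1 in cluster 7 is highest at E10 (220.7 CPM).

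Venus gates were compared at E11.5, G2VInt over G2VLo. Over all cells the G2VInt group had 324.8 CPM Tek, 767.9 CPM Tie1 and 123.8 CPM Ptprb, against 209.4, 470.7 and 79.26 CPM in G2VLo cells, and Angpt1 was at 60.7 against 62.9 CPM. The log2 ratios were 0.63, 0.71, 0.64 and -0.05, so 0 of 4 genes passed 2-fold, beside 3.34% of all genes. Ptprb was at 1.18, past 2-fold, in the upper library numbers alone and at 0.22 in the lower ones. Inside clusters the gap was smaller for most: Tek stood at 0.46 and 0.27 in EC clusters 1 and 2, and at 0.45 and 0.03 in HC1 clusters 7 and 8. Tie1 gave 0.81, 0.35, 0.21 and 0.34 in that order, and Ptprb 0.42, 0.07, 0.19 and -0.03. No gene passed 2-fold in any of the 4 clusters (0 of 4 in each, beside 4.30%, 1.68%, 5.59% and 4.99% of all genes). Angpt1 was at -0.24 in HC1 cluster 7 and 0.03 in HC1 cluster 8. The median of all genes lay at 0.13 to 0.18 in these comparisons, and the median share of mitochondrial reads was 2.93% in G2VInt and 6.41% in G2VLo cells, which were also read less deeply; the part of depth and RNA quality was not tested.

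CD27+ cells carried more Angpt1 than G2VLo cells as whole groups, with 158.98 against 62.91 CPM. The log2 ratio was 1.34 (1.30 to 1.37), which made it 1 of 4 genes higher where 2.08% of all genes were. Tek was at 175.2 against 209.4 CPM (-0.26), Tie1 at 285.4 against 470.7 CPM (-0.72) and Ptprb at 64.4 against 79.3 CPM (-0.30). The groups differ in make-up: clusters 7 and 8 of the authors' clustering of all cells held 71.4% of CD27+ cells (85 cells, 62.4% to 79.3%) and 38.1% of G2VLo cells (180 cells, 33.7% to 42.7%). Within those clusters together Angpt1 was at 200.6 against 182.1 CPM, and in the other clusters at 61.8 against 6.20 CPM. In cluster 8 alone, 69 CD27+ cells had 210.5 CPM Angpt1 against 188.98 CPM (0.16), with Tek at -0.11, Tie1 at -0.52 and Ptprb at -0.07. In cluster 7, 16 CD27+ cells had 162.1 CPM Angpt1 against 164.3 CPM (-0.02), with Tek at -0.19, Tie1 at -0.60 and Ptprb at -0.02. None of the genes with 10 CPM or more on 1 side passed 2-fold there (0 of 4 in each). Beside this stood 15.6% of all genes in cluster 7 and 3.22% in cluster 8. Over the whole groups, 6 of 6 mural and mesenchymal markers tested were higher in CD27+ cells (364.03 against 87.06 CPM summed) and 6 of 6 macrophage markers were lower, beside 5.92% of all genes. In cluster 8 alone the mural and mesenchymal list summed to 107.8 against 103.1 CPM.

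**Figure D5:**
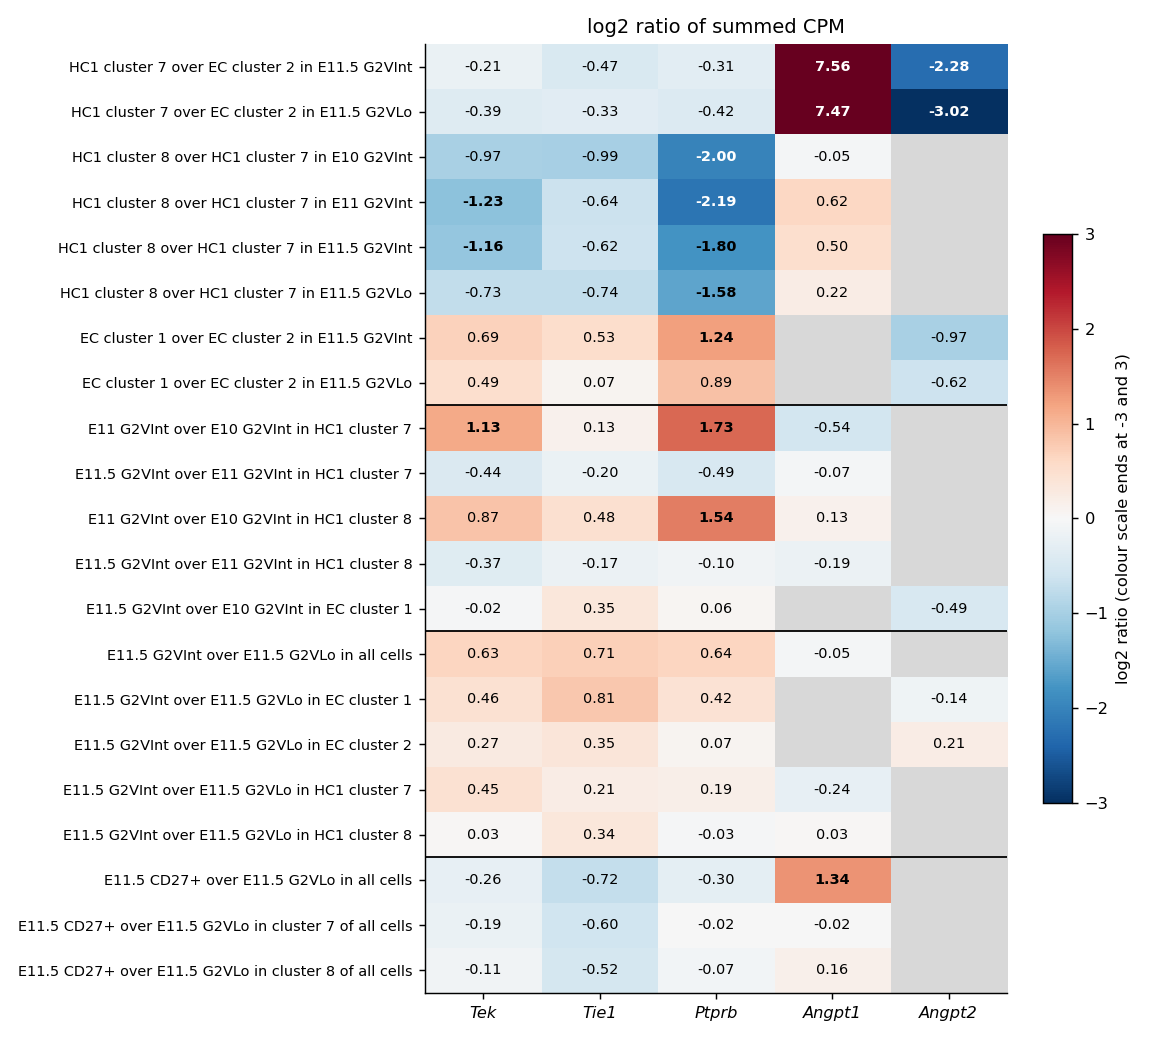
Log2 ratio of each gene (columns) in the 21 comparisons (rows); colour ends at -3 and 3, grey marks genes under 10 CPM on both sides, and bold numbers are at least 2-fold. Angpt1 in HC1 cluster 7 over EC cluster 2 (7.56 and 7.47) is the largest ratio, Ptprb in HC1 cluster 8 over HC1 cluster 7 is negative in all 4 groups, and the Venus gates hold no bold number.

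The rest of the pathway was read from gene lists, by their members with 10 CPM or more on 1 side. Of 16 adaptors and effectors of Tie2, 15 were tested in HC1 cluster 7 over EC cluster 2 in G2VInt cells, and 1 was higher and 3 lower, beside 13.3% and 11.1% of all genes, with a median log2 ratio of -0.25 beside 0.16 for all genes. In G2VLo cells 14 were tested, 3 higher and 1 lower, beside 14.3% and 11.4% of all genes, with a median of -0.08 beside 0.20. The same shares are the background of the lists that follow for HC1 cluster 7 over EC cluster 2. Dok2, an adaptor that docks on active Tie2 and is also common in blood cells, had 274.7 against 4.02 CPM in G2VInt and 260.6 against 0.642 CPM in G2VLo cells. Foxo1, the transcription factor that Akt restrains downstream of Tie2, was lower (39.8 against 135.8 CPM, log2 ratio -1.77, and -1.69 in G2VLo cells). Nos3, endothelial nitric oxide synthase, was at 42.5 against 93.4 CPM in G2VInt cells (-1.14), and the adaptor Grb14 at 0.03 against 13.4 CPM. Akt2 and Tnip2 were higher in G2VLo cells (1.24 and 1.27). The kinase Akt1 and the adaptor Shc1, the most abundant of the list in cluster 7 after Dok2, were at 101.7 and 99.8 CPM in cluster 7 of G2VInt cells and at 103.7 and 115.1 CPM in EC cluster 2, where Foxo1 was the highest.

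Partners of VE-PTP at the cell junction were lower in HC1 cluster 7 than in EC cluster 2, in 2 of 5 in G2VInt and 3 of 5 in G2VLo cells (median log2 ratios -0.92 and -1.15). Kdr, the VEGF receptor, was at 118.15 against 846.5 CPM in G2VInt cells (-2.84) and at -2.50 in G2VLo cells, plakoglobin (Jup) at -1.60 and -1.76, and VE-cadherin (Cdh5) at -1.15 in G2VLo cells. Cluster 8 over cluster 7 continued in the same direction, with list medians of -0.71 at E10, -0.76 at E11, and -1.05 and -0.69 in G2VInt and G2VLo cells at E11.5, where the median of all genes was 0.02 or less. Cdh5 was called lower there in 3 of 4 groups (-1.63 at E10, -1.40 and -1.19 at E11.5), Kdr in 3 (-1.35 at E11, -1.78 and -1.40 at E11.5) and Jup in 1 (-1.05). Nos3 was lower in all 4 (-3.79, -2.53, -3.06 and -1.26). Beta-catenin (Ctnnb1), the most abundant of the junction list, stayed within 2-fold in these comparisons, at 774 CPM in cluster 8, 1136 in cluster 7 and 1469 in EC cluster 2 of G2VInt cells at E11.5. In EC cluster 1 over EC cluster 2 none of the 5 junction genes passed 2-fold, and of the effectors Nos3 did in G2VInt (1.10) and Dok2 in G2VLo cells (4.22).

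Angiopoietin-2 is stored in Weibel-Palade bodies, the storage granules of endothelium, and genes of these granules did not follow Angpt2. In HC1 cluster 7 over EC cluster 2, 4 of 5 were higher in both gates, with medians of 3.02 and 4.23. Vwf, von Willebrand factor, was at 554 against 36.3 CPM in G2VInt cells (3.93) and at 4.23 in G2VLo cells. Rab27a, which anchors the granules, gave 3.02 and 4.57, the granule membrane protein Cd63 gave 1.61 and 2.24, and P-selectin (Selp) gave 6.59 and 7.64. EC cluster 1 over EC cluster 2, where Angpt2 was at -0.97 and -0.62, had 3 of 4 granule genes higher in each gate, beside 4.12% of all genes in G2VInt and 4.04% in G2VLo cells: Vwf (3.69 and 3.63), Rab27a (2.33 and 2.77) and endothelin-1, Edn1 (3.19 and 2.13). Some of these genes also serve platelets and their precursors, whose 6 markers summed to 260.3 CPM in HC1 cluster 7, 61.7 in EC cluster 1 and 14.96 in EC cluster 2; their part was not tested. In cluster 8 over cluster 7, Vwf was lower in all 4 groups (-1.80, -1.32, -2.04 and -1.52), Edn1 in 3 (-8.90 at E11, -3.85 and -4.91 at E11.5), and Selp was higher at E10 (1.81).

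Tip cell genes, which mark the leading cells of sprouts and are often found with Angpt2, were lower in HC1 cluster 7 than in EC cluster 2 in 3 of 5 tested in G2VInt and 4 of 6 in G2VLo cells, with medians of -3.41 and -3.12. Apln, the ligand of the apelin receptor, was at -4.45 and -3.87, the netrin receptor Unc5b at -3.41 and -2.37, and the channel subunit Kcne3 at -9.50 and -10.18; Esm1, a secreted proteoglycan, had no read in cluster 7 of G2VLo cells and 21.5 CPM in EC cluster 2. In EC cluster 1 over EC cluster 2, 3 of 5 were lower in G2VInt and 4 of 6 in G2VLo cells, beside 1.34% and 1.47% of all genes, while Angpt2 itself stayed within 2-fold. They were Unc5b (-3.11 and -2.86), Kcne3 (-1.43 and -2.03), the Notch ligand Dll4 (-1.98 and -1.91) and, in G2VLo cells, Esm1 at 0 against 21.5 CPM. Dll4 was also lower in cluster 8 than in cluster 7 in all 4 groups (-4.34, -2.11, -3.23 and -2.29).

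Of the proteases that can shed receptor ectodomains, 3 were tested, and Mmp14, a membrane metalloproteinase, was lower in HC1 cluster 7 than in EC cluster 2 (-1.87 and -1.34). It was lower again in cluster 8 than in cluster 7 at E10 (-3.005) and in both gates at E11.5 (-1.70 and -1.68). Adam10 and Adam17 were called in none of the cluster comparisons. At E11.5 the most abundant of these proteases was Adam10 in HC1 and Mmp14 in EC. Of 5 integrin subunits that can bind angiopoietins, 4 were tested, and Itgb3, also a subunit of the platelet integrin, was at 191.3 against 1.07 CPM in G2VInt cells (7.48) and at 6.72 in G2VLo cells, with Itgb1 the most abundant at 465.7 against 635.5 CPM in G2VInt cells. Itgb3 was also higher in EC cluster 1 than in EC cluster 2 in G2VLo cells (4.45). Among 9 angiopoietin relatives and ligands of Tie1, 2 reached 10 CPM: Angptl4, a secreted inhibitor of lipoprotein lipase, was higher in cluster 7 than in EC cluster 2 (1.75 and 1.99), higher in cluster 8 than in cluster 7 at E10 (2.20) and higher in EC cluster 1 than in EC cluster 2 of G2VLo cells (1.63). Angptl2, a secreted relative, was lower in cluster 8 than in cluster 7 at E10 (-1.21) and in G2VLo cells (-1.01). The other receptor phosphatases of the class of Ptprb (Ptprh, Ptprj, Ptpro and Ptprq) were under 10 CPM on both sides of each of these comparisons.

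At E11 over E10, the step at which Tek and Ptprb were higher, none of the 14 effectors tested in HC1 cluster 7 and none of the 13 in HC1 cluster 8 passed 2-fold (medians 0.25 and 0.35, beside 0.02 and 0.01 for all genes). In cluster 7, 3 of 5 granule genes were higher (Edn1 3.12, Vwf 1.36, Selp 1.19), beside 8.18% of all genes. Angptl4 was also higher (1.66), and Mmp14 (-1.21) and Itgb3 (-1.14) were lower. In cluster 8, where 6.07% of all genes were higher, so were Cdh5 (1.01), Mmp14 (1.57), Vwf (1.83), Itgav (1.09) and Dll4 (3.22). Angptl4 (-1.27) was lower there. Mmp14 and Angptl4 thus went in opposite directions in the 2 clusters over that step.

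Over the 19 sets of at least 10 cells, the genes whose log2(CPM + 1) was most like each member were found by Pearson correlation among 11067 genes. The result is a description, since all genes were read in the same libraries and the sets differ in depth and cluster. Tek was most like Nrarp (0.98), Ktn1 (0.98), Eng (0.97), Fkbp10 (0.97) and Esam (0.97). Among the genes most like Tie1 were Zfp521 (0.99), Eng (0.98), Arhgap28 (0.98) and Cd276 (0.98). Ptprb lay closest to Mmrn2 (0.99), Clec14a (0.99), Sox7 (0.98), Amotl2 (0.98) and S100a16 (0.98). Angpt1 lay closest to Meis1 (0.97), Stat4 (0.96), Crlf3 (0.96), Abcc1 (0.96) and Hook1 (0.95), and Angpt2 to Cald1, Sema4c and Pde8a (0.93 each) and Magi1 and Arhgap27 (0.92 each). Between members, Tek correlated with Tie1 and Ptprb at 0.94 each and with Angpt2 at 0.73, while Tek and Angpt1 stood at 0.14 and Angpt1 and Angpt2 at -0.38.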

How the data were processed

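Messenger RNA of 1087 single cells was sequenced (Nextera XT libraries, Illumina HiSeq, per the labels). The deposited table holds raw counts of reads per Ensembl gene, made with HTSeq 0.6.0 on GRCm38, per the submitters' processing notes; the aligner and strand setting are not given in the sources used here. No molecular identifiers are described. Of 46078 genes, 45229 matched a GENCODE M21 symbol, and 0 columns lacked a sample. In all 1380367268 reads were counted, and depth per cell ran between 117369 and 6999570 (median 818924). Groups held 87 (E10 G2VInt), 130 (E11 G2VInt), 279 (E11.5 G2VInt), 119 (CD27+) and 472 (G2VLo) cells, and HC1 clusters 8 and 7 and EC clusters 1 and 2 held 198, 207, 145 and 190. Cells with the same values in every gene numbered 0. Clusters and classes were taken from the labels, and no doublet caller was run.

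Counts were summed over the cells of a group and cluster (10 cells or more) and scaled to CPM, with exact Poisson 95% intervals; the widest was 19.2% of its value over 160 values at 10 CPM or more. Shares carry Clopper-Pearson 95% intervals. With 1 sample per group no test was run: called means at least 2-fold with 10 CPM or more on 1 side, and a ratio needed over 3 reads on both sides. The steps were tested on simulated data. Members, gene lists and comparisons were chosen with earlier results of these data known. All 5 members were described; of each list, the most abundant members and those called in the cluster comparisons and in E11 over E10 were named, with lists in other comparisons not described. Alternatives were per-cell means, TMM scaling (edgeR 4.0.16 in R 4.3.3), totals without mitochondrial reads, no CPM minimum, lower or upper library numbers, the clustering of all cells, thinning, and a 1.5-fold limit. Python 3.11.15, numpy 2.4.6, scipy 1.17.1, pandas 2.3.3 and matplotlib 3.10.9 were used. RefSeq promoters were found for Tek and Tie1. Of the genes most like Tie1, 1 is not reported here.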

Additional observations from a re-analysis of the deposited data

Results flagged for a closer look

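Angpt2 was highest in a cluster that enters none of the comparisons. In U2 cluster 4, a set of 14 cells, it reached 129.4 CPM, more than 2-fold above the 18.6 to 21.5 CPM of EC cluster 2, which was the highest of the clusters compared. The 3 highest cells held 94.96% of those reads and the median cell had 17.0 CPM. By group the level was 2.10 CPM in 2 E10 cells, 330.09 CPM in 2 E11 cells (154.3 and 905.4 CPM), 52.2 CPM in 3 E11.5 G2VInt cells and 16.001 CPM in 7 E11.5 G2VLo cells. The cluster also held 10 endothelial markers at a summed 3828 CPM, 7 of 8 mural and mesenchymal markers at 10 CPM or more (a summed 544 CPM, with the collagen gene Col1a1 at 222.7 CPM), 6 hematopoietic markers at 675 CPM and 6 macrophage markers at 518 CPM. Their part in the Angpt2 level was not tested.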

How the results depend on the processing

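No ratio of a member that was called changed direction under the alternatives run. Of 15 called ratios 3 fell under 2-fold, each in the authors' clustering of all cells. They were Tek in cluster 7 and Ptprb in cluster 8 at E11 over E10, and Tek in cluster 8 over cluster 7 of E11.5 G2VInt cells. At E10 that clustering has 11 and not 27 cells in HC1 cluster 7, and 55 and not 36 in HC1 cluster 8. Between clusters, 3 pairs of member and comparison were higher in the main analysis, against 6 without the CPM minimum and 6 at 1.5-fold. Lower pairs numbered 8, against 16 at 1.5-fold. The counts that follow are of such pairs too. Between days, 3 were higher, against 5 without the minimum and 1 in the clustering of all cells, and 0 lower, against 2 in the lower library numbers (both Ptprb, E11.5 over E11). Between gates, 0 were higher, against 1 in the upper library numbers (Ptprb over all cells, 1.18, with 0.22 in the lower ones) and 4 at 1.5-fold. In CD27+ over G2VLo cells, 1 was higher, against 2 without the minimum, and 0 lower, against 2 at 1.5-fold. Of 590 member ratios over the alternatives, 64.6% left the counting interval of the main value, so that interval understates the uncertainty. Angpt1 in CD27+ over G2VLo cells was 1.68 in the lower and 1.00 in the upper library numbers. Angpt2 was under 6 CPM in every HC1 set, below the 10 CPM needed for a call. No paired analysis was possible because each group is 1 sample and the labels give no shared replicate number.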
